A study of Mus musculus with 18 samples.

Results

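The genes described here encode the subunits of the proteasome and of its activators in mouse liver nuclei. They are all rows of the raw count table whose symbol is Psma, Psmb, Psmc, Psmd or Psme followed by a number, 44 of 20105 genes. HEP-INTACT mice carry a nuclear tag in hepatocytes by which hepatocyte nuclei can be bound to beads out of all liver nuclei (immunoprecipitation, IP). The promoter that drives the tag and the age of the animals are not given in the sources used here. All mice were female and all carried the tag. One set had been fed ad libitum and the other had been without food for 16 h from the start of the dark, active phase, and both were killed at the same hour. Per the labels, nuclei fell into 6 groups of 3 libraries: bead-bound hepatocyte nuclei from fresh liver of fed and of fasted mice, unbound (supernatant) nuclei from the same fresh livers, fed and fasted, and bead-bound hepatocyte nuclei from frozen tissue of the same mice, fed and fasted. The mouse numbers in the labels show 6 mice in all, so the fresh, frozen and supernatant values of a feeding state come from the same 3 animals and are not independent of each other.

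The 26S proteasome degrades ubiquitin-tagged proteins. Its 20S core is a barrel of outer rings of alpha subunits, which gate the entrance, and inner rings of beta subunits, of which Psmb5, Psmb6 and Psmb7 encode the proteolytic ones. The 19S cap binds ubiquitin chains and removes them, and its ATPases unfold the substrate and feed it into the core. Under interferon, and at all times in many immune cells, the catalytic subunits are replaced by Psmb8, Psmb9 and Psmb10, which form the immunoproteasome and shape the peptides that MHC class I molecules present. In fasting, proteolysis in liver yields amino acids for glucose production, and both the proteasome and autophagy contribute to it.

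Of the 44 genes, 30 encode subunits of the constitutive 26S particle and are called the core set below: 6 alpha subunits (Psma1 to Psma5 and Psma7), 7 beta subunits (Psmb1 to Psmb7), the 6 base ATPases (Psmc1 to Psmc6), 3 non-ATPase subunits of the base (Psmd1, Psmd2 and Psmd4) and 8 lid subunits (Psmd3, Psmd6, Psmd7, Psmd8, Psmd11, Psmd12, Psmd13 and Psmd14). Psma6 has no row that matched and was not analysed here. The other 14 are the testis-type alpha subunit Psma8, the 3 immune subunits, the thymus subunit Psmb11, the base assembly chaperones Psmd5, Psmd9 and Psmd10, the activators Psme1, Psme2, Psme2b, Psme3 and Psme4, and Psmc3ip. Psmc3ip fits the symbol pattern but encodes a factor of meiotic recombination and is no proteasome subunit. Psmb11 had between 0 and 2 counts in every library and was tested nowhere. Psme2b had 1 to 8 counts in IP libraries, too few for a test among them, and 215 to 433 in the supernatant. It is a near copy of Psme2 and lies within 9930111J21Rik1 on the same strand, so its reads are uncertain. Psma4, Psmc3ip, Psmd1 and Psme1 overlap a gene on the opposite strand, and the strand setting of the counting is not given in the sources used here. The remaining 39 genes overlap no other gene of the table.

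Library totals ranged from 13828945 counts in a frozen IP library of fed mice to 54434263 in a fresh IP library of fasted mice. Levels are normalised read counts (CPM), on library totals scaled for composition. Fold changes were tested with edgeR's quasi-likelihood test, with Benjamini-Hochberg adjustment over all genes tested, and a gene was called at an adjusted p under 0.05. The error after ± is the standard error of the difference of group means in log2 CPM. The summed level of 12 hepatocyte markers (such as Alb, Apob and Cps1) was 14840 to 30300 CPM in the IP libraries of both preparations and 579.6 to 1586 CPM in the supernatant, and the Kupffer cell list was the reverse, 8.416 to 100.5 CPM against 3830 to 7192. In these bulk nuclei, fewer cells of a type and less RNA per cell cannot be told apart.

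The genes of the constitutive 26S proteasome were higher in hepatocyte nuclei of fasted mice. In fresh IP nuclei 29 of the 30 core genes rose, none fell, and the median change was 0.63 on the log2 scale, a 1.55-fold higher level, against a median of 0.01 over all genes tested. Among all 12548 genes tested, 12.4% were called higher and 12.6% lower. Over all 42 proteasome genes tested, 31 (73.8%) rose and 1 fell. In all 30 core genes the 3 fasted libraries lay above the 3 fed ones, which was so for 22.6% of all genes tested. The change was narrow across the set: its standard deviation over the 30 genes was 0.16 on the log2 scale, from 0.28 for Psmb1 to 0.97 for Psmb3. Since the fasted libraries did not overlap the fed ones, each necessarily had all 30 core genes above the fed mean. The median distance from the fed mean was 0.53 to 0.68 on the log2 scale in the 3 fasted libraries. Of the fed libraries, the one with the letter A was highest, with 28 of 30 genes above the fed mean by a median of 0.13. As a share of all counts with no scaling, the 44 genes took 0.159% ± 0.00655 (SD, n = 3) in fed and 0.232% ± 0.00591 (SD, n = 3) in fasted nuclei.

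Psmb3, a structural beta subunit, had the largest rise of all members. Its levels were 18.1, 14.8 and 17.1 CPM in the fed and 36.3, 29.9 and 30.6 CPM in the fasted libraries, so that the lowest fasted value was well above the highest fed one (log2 fold change 0.97 ± 0.13, adjusted p = 0.00321 by edgeR's quasi-likelihood test). Psmb5, the chymotrypsin-like subunit, was at 4.14, 3.34 and 2.56 CPM fed and 6.60, 6.40 and 6.09 CPM fasted (0.95 ± 0.19, adjusted p = 0.0149). Psmb7, the trypsin-like subunit, stood at 108.6, 97.7 and 98.1 CPM fed and 145.8, 139.8 and 153.8 CPM fasted (0.55 ± 0.06, adjusted p = 0.00865). Psmb6, the caspase-like subunit, lay near the threshold with 7.88, 9.37 and 6.53 CPM fed and 11.3, 10.9 and 11.2 CPM fasted (0.51 ± 0.14, adjusted p = 0.048). The groups did not overlap for any of these 4 genes. Psmb1 was the 1 core gene not called: its log2 difference was 0.28 ± 0.08 (adjusted p = 0.0873), with the fed library of letter A at 87.6 CPM close to the lowest fasted value of 91.1 CPM.

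The rise was found in each layer of the particle. In the alpha ring 6 of 7 tested genes rose, from 0.46 for Psma3 to 0.68 for Psma4 on the log2 scale. The exception was Psma8, the subunit known from germ cells, at 3.31, 4.05 and 3.64 CPM fed and 3.74, 2.60 and 3.29 CPM fasted. All 6 ATPases of the base rose, led by Psmc1 with 25.4, 22.6 and 22.3 CPM fed against 47.1, 39.3 and 35.1 CPM fasted (0.81 ± 0.14, adjusted p = 0.00646). All 3 non-ATPases of the base rose. Psmd4, a receptor for ubiquitin chains, went from 37.0, 31.5 and 36.2 CPM to 65.7, 61.8 and 53.8 CPM (0.81 ± 0.12, adjusted p = 0.00437). All 8 lid genes rose, among them Psmd8 (0.81 ± 0.14, adjusted p = 0.00704), Psmd13 (0.72 ± 0.12, adjusted p = 0.00811) and Psmd14. Psmd14 encodes the enzyme that cuts ubiquitin chains off the substrate, and its levels were 148.1, 136.0 and 119.9 CPM fed and 259.1, 220.9 and 187.7 CPM fasted (0.75 ± 0.16, adjusted p = 0.0115).

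The genes around the particle differed among themselves. Of the 3 base assembly chaperones, Psmd9 rose from 36.4, 33.7 and 27.1 CPM to 59.5, 52.1 and 66.6 CPM (0.90 ± 0.15, adjusted p = 0.00539). Psmd5, another chaperone of base assembly, was at 23.3 to 24.95 CPM fed and 22.4 to 27.1 CPM fasted, with overlapping groups. Psmd10, also known as gankyrin, had an adjusted p of 0.164 and lower values in all 3 fasted libraries, 1.98 to 2.43 CPM against 2.82 to 3.29. Among the activators Psme3, the nuclear PA28 gamma cap that opens the core for substrates without ubiquitin, rose from 18.2, 14.5 and 13.6 CPM to 28.2, 23.6 and 30.7 CPM (0.85 ± 0.16, adjusted p = 0.00808). Psme4, the nuclear PA200 cap, missed the threshold (0.37 ± 0.08, adjusted p = 0.0529). Psme1, a subunit of the interferon-inducible PA28 cap, had 10.7, 15.04 and 9.64 CPM fed and 7.20, 8.89 and 7.89 CPM fasted (-0.53 ± 0.20, adjusted p = 0.078). Its partner Psme2 differed by -0.23 ± 0.11 (adjusted p = 0.303).

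**Figure D1:**
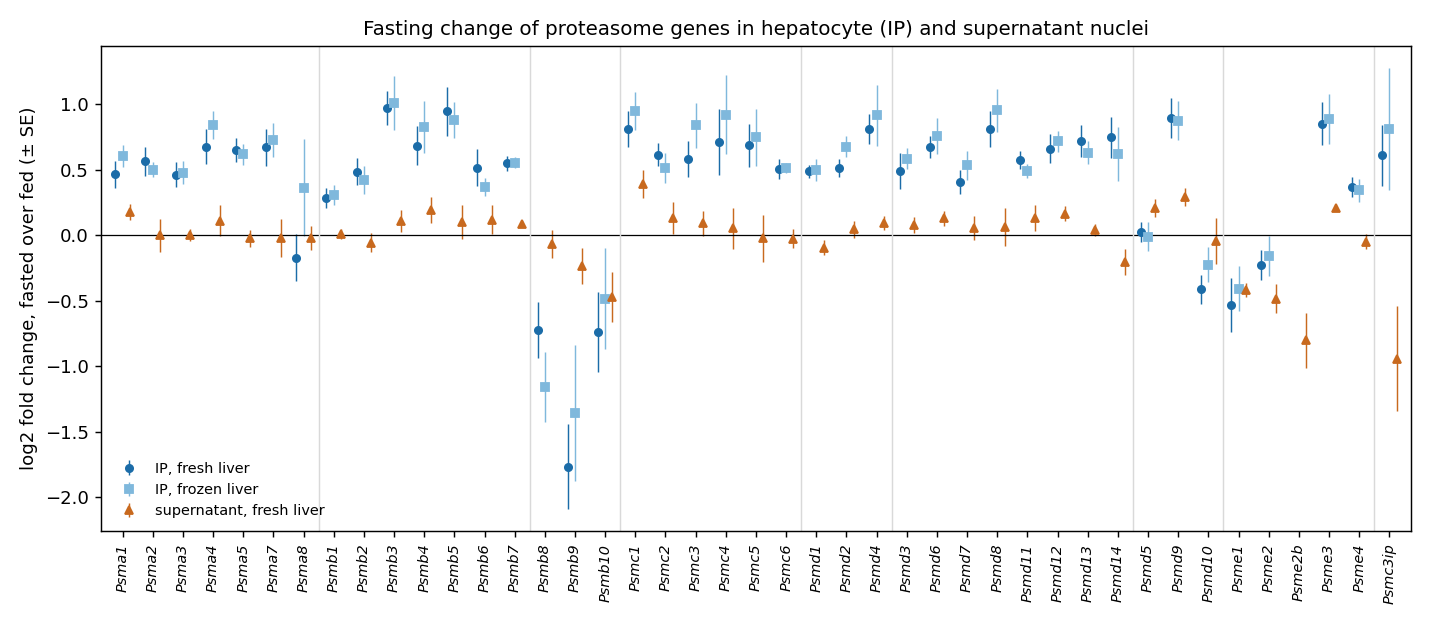
Log2 fold change of each tested gene, fasted over fed, with its standard error, in hepatocyte (IP) nuclei of fresh liver (circles), of frozen liver (squares) and in supernatant nuclei (triangles); grey lines separate the subunit classes, 3 libraries a group. The constitutive 26S genes lie between 0.28 and 1.01 in both IP series, Psmb8, Psmb9 and Psmb10 lie below 0, and the core genes in the supernatant lie between -0.20 and 0.39.

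These counts and sizes were seen beside other differences between the groups. The hepatocyte marker list had 3 of 12 genes higher and 1 lower in fasted fresh IP nuclei, with a median of 0.41 on the log2 scale and summed levels of 14840 to 22220 CPM fed and 21950 to 30300 CPM fasted; its part in the result was not tested. Proteasome genes are short, with a median span of 9995.5 bp from start to end against 16918 bp over all genes, and with all tested genes split in 4 by span, the 3137 shortest had a median fasting change of 0.09, with 14% called higher. Of the 21 proteasome genes among them, 14 rose. Without the fasted library of letter A, 15 proteasome genes were called higher in place of 31, and 1429 genes in place of 3145 over the whole table.

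The immune subunits lay on the other side of 0: Psmb9 fell, and Psmb8 and Psmb10 had lower values that did not pass the threshold. Psmb9, which replaces Psmb6 in the immunoproteasome, was at 4.62, 5.85 and 4.47 CPM in fed and 1.21, 2.06 and 0.987 CPM in fasted fresh IP nuclei. The fall was the largest of any member (-1.77 ± 0.32 on the log2 scale, 0.294 of the fed level, adjusted p = 0.00645 by edgeR's quasi-likelihood test). Psmb8, which replaces Psmb5, was at 1.52, 2.20 and 1.91 CPM fed and 1.237, 1.20 and 0.888 CPM fasted (-0.72 ± 0.21, adjusted p = 0.0878). Psmb10, which replaces Psmb7, was at 4.42, 5.23 and 5.50 CPM fed and 1.95, 3.08 and 3.95 CPM fasted (-0.74 ± 0.31, adjusted p = 0.0816). In all 3 genes each fasted library lay below each fed one, which was so for 22.2% of all genes tested, but Psmb9 alone passed the threshold. Psmb8 had 27 to 76 counts and Psmb9 30 to 215 counts per fresh IP library, and Psmb7 had 2222 to 7208.

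Psmb8 and Psmb9 lie side by side with Tap1 and Tap2 in the MHC class II region of mouse chromosome 17. In the table's coordinates (mm10) Psmb9 spans chr17:34182099-34187330 on the minus strand and Psmb8 chr17:34198195-34201454 on the plus strand. Psmb10 lies alone on chr8:105935728-105938392, minus strand, and the constitutive partner Psmb5 on chr14:54614120-54617995, minus strand. Psmb9 shares a promoter of 225 bases with Tap1, which is transcribed in the opposite direction. The bases upstream of these genes and of Psmb3, the member with the largest rise, are given from RefSeq (GRCm38.p6) on the strand of the gene, 5′ to 3′, up to the base before the start. Capitals mark matches to 4 motifs searched on both strands: the antioxidant response element core TGACNNNGC, the CCAAT box, the interferon regulatory factor motif GAAANNGAA and the gamma-activated sequence TTCNNNGAA. In the order listed they lie at chr14:54617996-54618245, chr11:97703184-97703433, chr17:34197945-34198194, chr17:34187331-34187555 and chr8:105938393-105938642.
Psmb5: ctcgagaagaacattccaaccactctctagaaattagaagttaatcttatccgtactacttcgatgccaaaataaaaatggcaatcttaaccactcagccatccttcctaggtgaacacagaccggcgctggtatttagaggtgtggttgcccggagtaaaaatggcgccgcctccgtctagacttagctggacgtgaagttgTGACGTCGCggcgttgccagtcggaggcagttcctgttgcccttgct
Psmb3: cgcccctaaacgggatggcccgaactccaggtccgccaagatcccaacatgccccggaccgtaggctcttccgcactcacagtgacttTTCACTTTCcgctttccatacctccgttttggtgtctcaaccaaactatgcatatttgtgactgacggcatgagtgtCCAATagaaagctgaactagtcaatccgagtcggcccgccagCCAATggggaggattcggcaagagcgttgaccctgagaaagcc
Psmb8: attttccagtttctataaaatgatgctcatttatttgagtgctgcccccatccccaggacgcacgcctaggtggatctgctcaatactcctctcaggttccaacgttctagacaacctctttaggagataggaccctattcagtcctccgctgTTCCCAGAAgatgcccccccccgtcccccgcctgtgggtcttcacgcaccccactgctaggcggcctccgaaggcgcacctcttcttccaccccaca
Psmb9: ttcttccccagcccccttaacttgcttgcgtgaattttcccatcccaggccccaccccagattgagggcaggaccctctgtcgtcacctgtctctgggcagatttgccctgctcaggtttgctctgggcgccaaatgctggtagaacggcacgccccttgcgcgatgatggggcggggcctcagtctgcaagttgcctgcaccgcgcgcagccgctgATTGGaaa
Psmb10: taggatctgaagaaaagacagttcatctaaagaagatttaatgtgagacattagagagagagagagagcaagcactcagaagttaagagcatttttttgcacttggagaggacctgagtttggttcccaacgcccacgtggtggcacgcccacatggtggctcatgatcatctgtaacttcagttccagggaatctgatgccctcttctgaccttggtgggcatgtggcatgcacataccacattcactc
The Psmb5 promoter holds 1 antioxidant response element core, the letters through which the Nrf1 and Nrf2 factors are known to act on proteasome genes. The Psmb3 promoter holds 2 CCAAT boxes and 1 interferon regulatory factor motif, the latter read on the opposite strand. Psmb8 has 1 gamma-activated sequence, Psmb9 has 1 CCAAT box on the opposite strand, and none of the 4 motifs matched in the run for Psmb10. The marked matches do not overlap each other.

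Over the windows of 250 bases before to 50 bases after the start, 37 of the 44 genes had an entry in RefSeq, and 33 of those starts equalled the table's. The antioxidant response element core was in 6 of the 37 (16.2%; Psmb5, Psmb6, Psmc6, Psmd12, Psmd9 and Psme4) and in 12.4% of 32851 promoters of the same length. The CCAAT box was in 14 (37.8%) and in 37.4% of all promoters. The interferon regulatory factor motif was in 5 (13.5%; Psmb3, Psmb4, Psmd4, Psmd9 and Psme1) and in 8.6% of all, and the gamma-activated sequence in 2 (5.4%; Psmb8 and Psmd2) and in 8.3% of all. These are letter matches only.

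**Figure D2:**
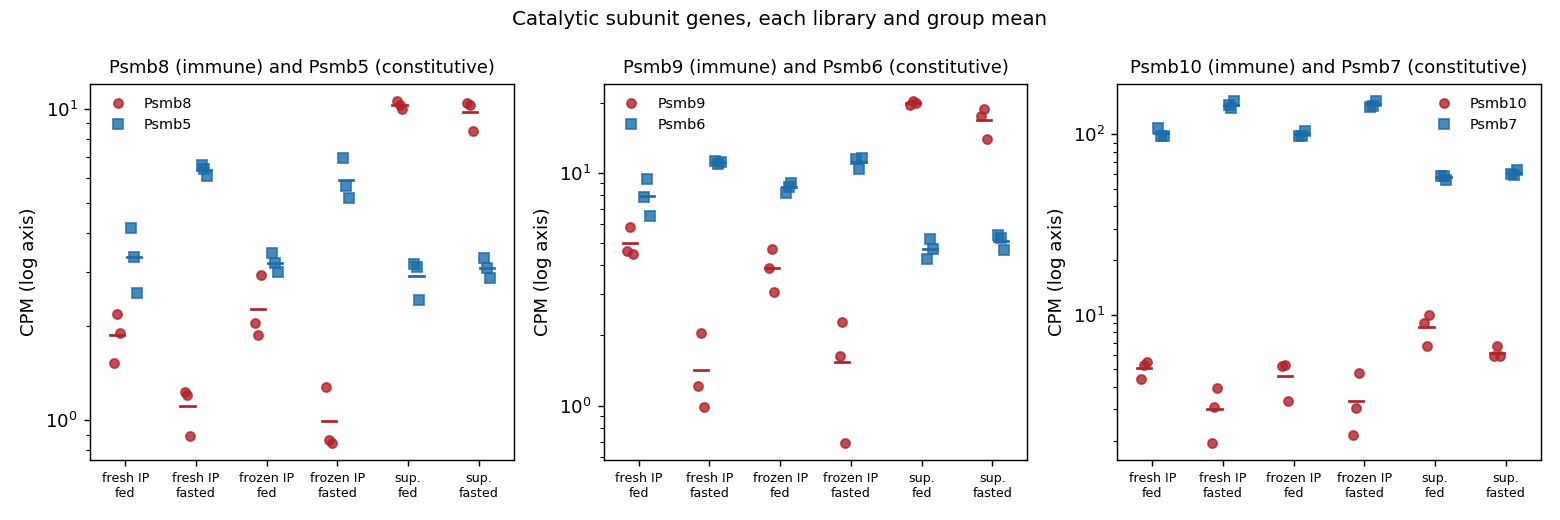
Level in CPM (log axis) of each immune subunit gene (circles) and the constitutive gene it replaces (squares) in each of the 18 libraries, with the mean of each group as a bar. In IP nuclei the immune genes lie below their constitutive partners in CPM, which is not per length, and have lower group means after fasting, while in the supernatant Psmb8 and Psmb9 lie above Psmb5 and Psmb6 in CPM.

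In frozen IP nuclei the same comparison gave 30 of 42 proteasome genes higher and 2 lower, beside 11% and 11.6% of the 12926 genes tested. In the core set 28 of 30 rose, with a median of 0.62 on the log2 scale (1.54-fold), and in all 30 the fasted libraries lay above the fed ones (23.6% of all genes). The 2 not called were Psmb1 (0.30 ± 0.08, adjusted p = 0.0865) and Psmb6, with 8.22, 8.70 and 9.07 CPM fed and 11.5, 10.3 and 11.6 CPM fasted (0.36 ± 0.07, adjusted p = 0.102). Psmb3 again had the largest difference, from 16.2, 14.95 and 10.7 CPM to 32.0, 26.4 and 26.3 CPM (1.01 ± 0.20, adjusted p = 0.00804). Psmb5 rose from 3.43, 2.998 and 3.19 CPM to 6.94, 5.65 and 5.19 CPM (0.88 ± 0.14, adjusted p = 0.0186), and Psmb7 from 97.8, 98.5 and 104.1 CPM to 142.6, 144.5 and 153.5 CPM (0.55 ± 0.04, adjusted p = 0.00991). Other large rises were those of Psmd8 (0.95 ± 0.16), Psmc1 (0.95 ± 0.14), Psmc4 (0.92 ± 0.30), Psmd4 (0.91 ± 0.23), Psme3 (0.88 ± 0.19), Psmd9 (0.87 ± 0.15) and Psma4 (0.84 ± 0.11).

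Psmb9 fell in frozen IP nuclei, from 3.90, 3.08 and 4.68 CPM to 1.63, 2.28 and 0.693 CPM (-1.36 ± 0.52, adjusted p = 0.0447 by edgeR's quasi-likelihood test). Psmb8 fell from 2.05, 2.92 and 1.88 CPM to 1.28, 0.867 and 0.847 CPM (-1.16 ± 0.27, adjusted p = 0.0314). For Psmb10 the groups overlapped, with 5.19, 3.31 and 5.24 CPM fed and 2.15, 3.05 and 4.78 CPM fasted (-0.49 ± 0.39, adjusted p = 0.305). Psmb8 and Psmb9 were the immune subunits whose 3 fasted libraries all lay below the fed ones here, as 21.4% of all genes did. Each of these calls was lost in 5 of the 6 fits that left out 1 library, and without the fasted library of letter A 11 proteasome genes were called higher in place of 30.

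In supernatant nuclei, which hold mostly other liver cells, none of the 43 proteasome genes tested rose and 2 fell, beside 3.38% called higher and 2.84% lower of 13921 genes. At an unadjusted p under 0.05 by edgeR there were 8 of the 43, beside 3221 of all 13921 genes. The core set had a median of 0.07 on the log2 scale, from -0.20 for Psmd14 to 0.39 for Psmc1 (adjusted p = 0.0768). In 4 core genes every fasted library lay above every fed one (14.2% of all genes), and in 0 below, while of the other members 6 lay below (14.9% of all genes) and 3 above, Psmd5, Psmd9 and Psme3. Psmb5 stood at 3.18, 3.10 and 2.43 CPM fed and 3.31, 3.09 and 2.87 CPM fasted, and Psmb3 at 9.37, 9.60 and 10.6 CPM fed and 11.2, 10.1 and 10.4 CPM fasted. Both pairs of groups overlapped. Psmb6 differed by 0.12 ± 0.11 and Psmb7 by 0.09 ± 0.02, with neither called.

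The 2 genes that fell in the supernatant were both of the PA28 family. Psme1 went from 14.7, 14.1 and 15.5 CPM to 11.2, 10.8 and 10.8 CPM (-0.42 ± 0.05, adjusted p = 0.0458), and the uncertain Psme2b from 8.90, 9.70 and 13.0 CPM to 5.79, 6.91 and 5.28 CPM (-0.80 ± 0.21, adjusted p = 0.0481). Each call was lost whenever any 1 library was left out. Psme2 differed by -0.49 ± 0.11 (adjusted p = 0.0587). The immune subunits did not pass: Psmb9 was at 19.6, 20.4 and 19.9 CPM fed and 17.6, 18.8 and 13.9 CPM fasted (adjusted p = 0.318), Psmb8 at 10.6, 10.3 and 9.95 CPM fed and 10.5, 10.3 and 8.49 CPM fasted (adjusted p = 0.787), and Psmb10 at 9.05, 6.73 and 10.01 CPM fed and 5.88, 6.67 and 5.92 CPM fasted (adjusted p = 0.147). The summed Kupffer cell list was 5136 to 7192 CPM fed and 3830 to 5447 CPM fasted, and the lymphocyte list 2356 to 3221 and 1833 to 2121 CPM. The stellate cell list was 811 to 1275 CPM fed and 783.2 to 882.3 CPM fasted. Other lists had higher medians of their sums after fasting. The hepatocyte list was 579.6 to 1014 CPM fed and 970.8 to 1586 CPM fasted, with 3 of 12 genes called higher and 0 lower, beside 3.38% and 2.84% of all genes. The endothelial list was 2556 to 3367 and 3054 to 4167 CPM. The part of these lists in the values above was not tested.

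The difference of the fasting response between IP and supernatant nuclei was tested as an interaction in fresh liver. All 30 core genes had a larger response in IP nuclei, by a median of 0.48 on the log2 scale, and 8 of them passed the threshold. Of all 43 proteasome genes tested, 9 were called with the higher response in IP nuclei and 1 with the lower, beside 3.71% and 5.83% of 14322 genes. The 8 core genes were Psmd14 (0.90 ± 0.20, adjusted p = 0.0147), Psmb3 (0.81 ± 0.15), Psmd4 (0.67 ± 0.14), Psmd13 (0.62 ± 0.14), Psma5 (0.62 ± 0.11), Psmd1 (0.53 ± 0.08), Psmc6 (0.48 ± 0.10) and Psmb7 (0.41 ± 0.05), and the ninth gene was Psme3 (0.59 ± 0.15, adjusted p = 0.0464). The interaction was 0.79 ± 0.23 for Psmb5 (adjusted p = 0.0749) and 0.34 ± 0.18 for Psmb6 (adjusted p = 0.315). Psmb9 was the gene with the lower response (-1.55 ± 0.38, adjusted p = 0.0144), while Psmb8 (-0.69 ± 0.25, adjusted p = 0.112) and Psmb10 (-0.32 ± 0.36, adjusted p = 0.569) did not pass. With same-letter libraries of the fractions paired as a block, Psmb7 (adjusted p = 0.0622), Psmc6 (0.0735), Psmd1 (0.0512) and Psme3 (0.0622) lost the call in edgeR's fit, and Psmb5 (0.80, adjusted p = 0.0469), Psma7, Psmc5 and Psmd8 gained it. Without the fasted supernatant library of letter B, 2 genes were called with the higher response in place of 9.

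Across both feeding states most constitutive genes were higher in hepatocyte than in supernatant nuclei and the immune genes lower. With 42.0% of 14322 genes called higher and 43.0% lower, this comparison calls most genes, and of 43 proteasome genes 33 were higher and 7 lower. In the core set 29 of 30 were higher, by a median of 0.95 on the log2 scale (1.94-fold). Psmc1 was the exception (0.12 ± 0.09, adjusted p = 0.236). On library totals with no composition scaling, a setting chosen after seeing the data, 27 members were higher and 9 lower by edgeR, and the median over the 43 members tested was 0.46 in place of 0.80, with the all-gene median at -0.34 in place of -0.0006. There the core genes Psma7, Psmb5, Psmd8 and Psmd13 and the caps Psme3 and Psme4 were no longer called, and Psmc1 (-0.22, adjusted p = 0.0287) and Psmd10 (-0.40, adjusted p = 0.0163) were called lower. The lid subunit Psmd11 had the largest difference, with 195.1, 169.5 and 180.5 CPM in fed IP against 58.6, 52.8 and 54.9 CPM in fed supernatant nuclei (1.88 ± 0.06, adjusted p = 1.28e-10). It was followed by the chaperone Psmd9 (1.72 ± 0.08), Psma4 (1.67 ± 0.09), Psmc4 (2.36-fold), Psmd1 (1.18 ± 0.04) and Psmb3 (1.14 ± 0.08). The constitutive catalytic genes were higher by 0.57 ± 0.12 (Psmb5; 0.23, adjusted p = 0.0936, on library totals), 0.88 ± 0.09 (Psmb6) and 0.99 ± 0.03 (Psmb7).

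Psmb8 was lower in IP nuclei by -2.84 ± 0.13 on the log2 scale, 0.14 of the supernatant level (adjusted p = 5.19e-10), Psmb9 by -2.81 ± 0.19 (adjusted p = 6.55e-09) and Psmb10 by -0.96 ± 0.18 (adjusted p = 0.000129). Psma8 was lower by -1.73 ± 0.09, Psme2 by -0.68 ± 0.09 and Psme1 by -0.44 ± 0.11. Psme2b was at 0.0251 to 0.155 CPM in fresh IP and at 5.28 to 13.0 CPM in supernatant nuclei. Psmd10 and Psmc3ip were not called.

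**Figure D3:**
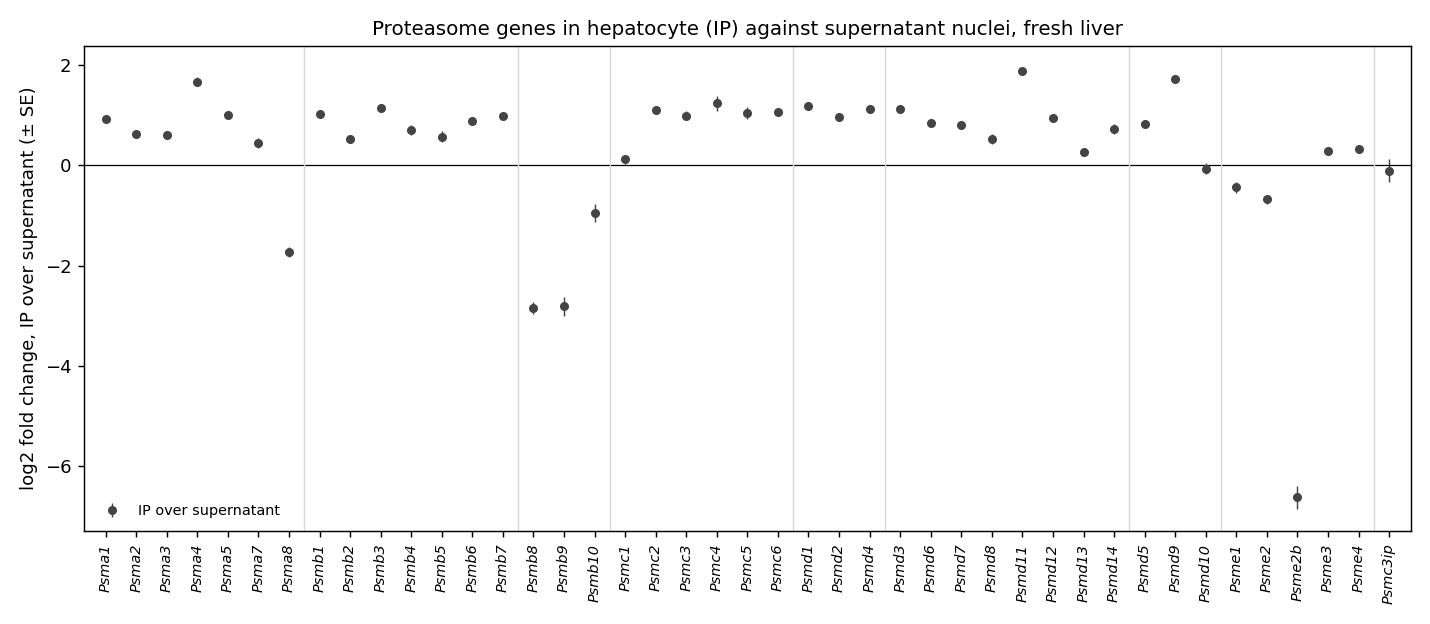
Log2 fold change of each tested gene in hepatocyte (IP) over supernatant nuclei of fresh liver, averaged over fed and fasted mice, with its standard error; grey lines separate the subunit classes, 3 libraries in each of 4 groups. All 30 constitutive 26S genes lie above 0 on this scaling, up to 1.88 for Psmd11, while on library totals Psmc1 and Psmd13 lie below 0, and Psmb8, Psmb9, Psmb10, Psma8, Psme1, Psme2 and Psme2b lie below 0; the fitted value of Psme2b rests on 1 to 8 counts in fresh IP libraries and depends on the prior count.

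The level of the immune genes in IP nuclei was set beside that of 6 marker lists of other cell types. In fed fresh IP nuclei Psmb8 stood at 18.3%, Psmb9 at 25% and Psmb10 at 58.8% of its supernatant level. The summed Kupffer list of 10 genes was at 0.203%, the lymphocyte list of 14 genes at 0.457%, the endothelial list of 10 genes at 3.16% and the stellate cell list of 10 genes at 9.34%, so these 4 lists were at a lower percentage than each immune subunit. The neutrophil and erythroid list of 8 genes was at 2.17%, and the cholangiocyte list of 8 genes was at 4160%, above its supernatant level. After fasting Psmb8 stood at 11.4%, Psmb9 at 8.45% and Psmb10 at 48.6%, and these 6 lists at 0.251%, 0.689%, 1.73%, 7.21%, 0.773% and 1850%. Within fresh IP nuclei the summed Kupffer list was 8.416 to 18.69 CPM fed and 11.37 to 13.45 CPM fasted, and the lymphocyte list 11.04 to 16.15 and 9.472 to 17.30 CPM, while the endothelial list was 65.46 to 131.6 and 35.26 to 80.47 CPM, with 0 of its 10 genes called in either direction. The other 3 lists had fed and fasted sums that did not overlap there, all lower after fasting. The stellate cell list was 71.56 to 128.8 CPM fed and 51.77 to 67.88 CPM fasted. The neutrophil and erythroid list was 3.088 to 4.179 and 1.237 to 1.612 CPM, and the cholangiocyte list 649.5 to 678 and 270 to 309 CPM. In this order 1 of 9, 1 of 2 and 1 of 5 tested genes were called lower and 0 higher, beside 12.6% of all genes called lower. Of the Kupffer and lymphocyte lists 1 of 9 and 1 of 5 tested genes were called higher and 0 lower, beside 12.4% of all genes called higher. Pkhd1 made up most of the cholangiocyte sum, with 555 to 577.8 CPM in fed and 194.8 to 245.2 CPM in fasted libraries. In frozen IP nuclei 5 of the 10 endothelial genes fell and 1 rose, and 4 of the 10 stellate cell genes fell and 0 rose, beside 11.6% of all genes called lower, with endothelial sums of 191.6 to 274.1 CPM fed and 112.0 to 167.1 CPM fasted. No gene of the Kupffer, lymphocyte, endothelial and stellate lists was at 0 in a whole group, while Mpo and Hba-a1 were at 0 in both fresh IP groups and S100a9 and Ly6g in the fed one. The part of these 6 lists in the fall of Psmb9 and Psmb8 was not tested.

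Counts of both genes of a replaced pair come from 1 library, so their ratio needs no scaling between libraries. The ratio of Psmb8 to Psmb5 counts was 0.374 to 0.750 in fed and 0.155 to 0.194 in fasted fresh IP nuclei, and 3.29 to 4.02 and 2.92 to 3.29 in the supernatant. For Psmb9 to Psmb6 it was 0.588 to 0.687 and 0.0938 to 0.191 in IP nuclei, and 3.90 to 4.53 and 2.98 to 3.56 in the supernatant. For Psmb10 to Psmb7 it was 0.0411 to 0.0566 and 0.0138 to 0.0261, and 0.115 to 0.179 and 0.0940 to 0.113. No fed range overlapped its fasted range in IP nuclei. The genes differ in length, so a ratio above or below 1 does not give the ratio of transcripts.

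On the log2 scale the ratio differed between IP and supernatant nuclei by -3.37 (Psmb8 to Psmb5), -3.71 (Psmb9 to Psmb6) and -1.95 (Psmb10 to Psmb7). Each had p = 0.005 in a two-sided exact permutation test within feeding state, the smallest it can give, and 0.025 after Benjamini-Hochberg adjustment over 15 such tests. That test treats the IP and supernatant libraries of a mouse as unpaired. With same-letter libraries taken as the pair of a mouse, a test added after seeing the data, the ratio was lower in IP nuclei in 6 of 6 mice for each pair of genes. The exact paired permutation test then gave p = 0.0312, the smallest it can give, and 0.136 after adjustment over the 15 tests, which does not pass the threshold. Between fasted and fed nuclei the 3 log2 ratios differed by -1.67, -2.33 and -1.33 in fresh and by -2.02, -1.82 and -1.07 in frozen IP nuclei. With 3 against 3 libraries the exact test cannot go below 0.1, and it gave 0.1 in all 6 cases (0.136 adjusted). In the supernatant the differences were -0.18 (p = 0.2), -0.37 and -0.54 (p = 0.1 each) by the exact permutation test.

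**Figure D4:**
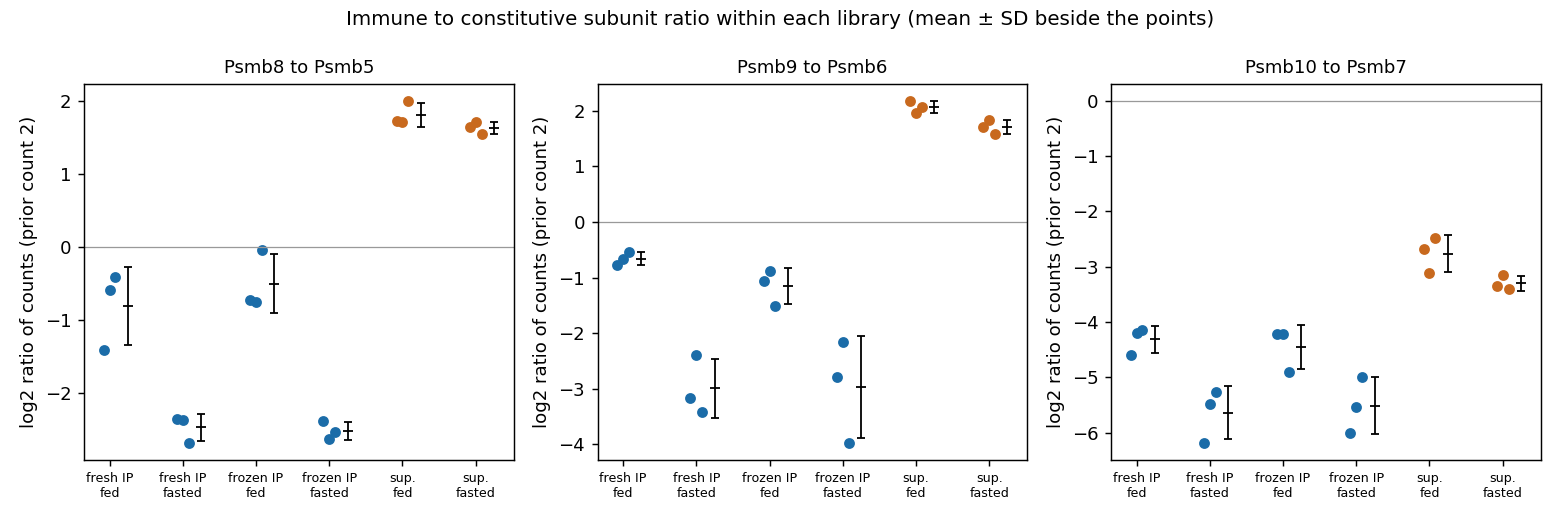
Log2 ratio of counts of each immune subunit gene to its constitutive partner in each library (points; blue for IP, orange for supernatant), with the mean and SD of 3 libraries beside them. In IP nuclei each pair has a lower mean ratio after fasting, with means of -0.81 and -2.48 for Psmb8 to Psmb5 in fresh liver, and the supernatant lies above IP nuclei in all 3 pairs.

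Levels of different genes were set side by side per length, here CPM per kilobase of the whole gene span, introns included, since nuclear RNA was read without poly(A) selection. In fed fresh IP nuclei the core genes spanned a 6.2-fold range on this scale, from 0.864 for Psmb5 to 5.34 for Psma4, with a median of 2.54. Psmb9 (0.952 ± 0.145, SD, n = 3) and Psmb5 (0.864 ± 0.204) were neighbours that did not differ beyond their spread, and Psmb8 followed at 0.576 ± 0.104. Psmb10 was at 1.90 and its partner Psmb7 at 1.82, over spans of 2665 bp and 55861 bp. Exon and intron reads were not separated, so values and ranks of genes with unlike spans do not give the ratio of transcripts. In fed supernatant nuclei the order differed: Psmb9 was the third of all 44 genes at 3.81, Psmb10 the fifth at 3.23 and Psmb8 the sixth at 3.16, while Psmb5 was at 0.748 and Psmb7 at 1.04. In fasted fresh IP nuclei Psmb10, Psmb8 and Psmb9 ranked 37, 38 and 40 of 44.

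Differences between frozen and fresh IP nuclei were small in these genes. None of 42 was called higher or lower in frozen against fresh IP nuclei by edgeR, beside 4.72% and 0.441% of 13162 genes. At an unadjusted p under 0.05 by edgeR there was 1 of the 42, beside 1686 of all 13162 genes. Differences ran from -0.20 for Psmb3 to 0.29 for Psma8 on the log2 scale. The catalytic genes differed by -0.06 ± 0.12 (Psmb5), 0.09 ± 0.08 (Psmb6), 0.02 ± 0.03 (Psmb7), 0.07 ± 0.17 (Psmb8), -0.10 ± 0.31 (Psmb9) and 0.04 ± 0.25 (Psmb10). Markers of other cells did differ: 9 of 10 endothelial and 7 of 10 Kupffer cell genes were called higher in frozen IP nuclei and 0 lower. Of the stellate cell and lymphocyte lists 3 of 10 and 3 of 8 tested genes were higher and 0 lower. Of the 12 hepatocyte markers 0 were called. The part of these lists in the values above was not tested. When same-letter libraries were blocked as 1 mouse, 2168 genes were called in place of 679, and 5 members were lower in frozen nuclei (Psmb1, Psmb2, Psmb3, Psmd9 and Psmd11). A difference of the fasting response between preparations passed the threshold for 0 proteasome genes and for 0 of the 13162 genes tested (0.00%; 43 at an unadjusted p under 0.05 by edgeR, none a proteasome gene). Its difference was -0.44 ± 0.35 for Psmb8, 0.41 ± 0.61 for Psmb9 and 0.25 ± 0.49 for Psmb10, and for Psmb5, Psmb6 and Psmb7 it was -0.07, -0.15 and -0.0014.

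Other genes of the pathway were followed as lists. Of 19 genes for assembly and associated factors, 4 (21.1%) rose and 0 fell on fasting in fresh IP nuclei, beside 12.4% and 12.6% of all genes, with a list median of 0.27 against 0.01 for all genes: the ubiquitin receptor Adrm1 (0.84 ± 0.08, adjusted p = 0.00321), the shuttle factors Ubqln1 (0.43) and Rad23b (0.37), and Psmf1 (0.42), which encodes the inhibitor PI31. In frozen nuclei Adrm1 (0.94) and Ubqln1 (0.41) rose, and Psmf1 did not pass (0.33, adjusted p = 0.174). Of 11 genes listed for the control of proteasome transcription 1 (9.09%) rose and 3 (27.3%) fell, beside the same shares of all genes. The 1 that rose was Vcp (0.45), which extracts Nrf1 from the ER membrane. The 3 that fell were Maf (-0.68), Mafg (-0.54) and Sel1l (-0.47). Of these, Maf in fresh IP nuclei was at 0.0743 of its supernatant level. Nfe2l1, which encodes Nrf1, differed by 0.06 ± 0.13 in fresh (adjusted p = 0.774) and 0.19 ± 0.22 in frozen IP nuclei (adjusted p = 0.486). In frozen nuclei Vcp rose (0.63) and Sel1l fell (-0.46).

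In fresh IP nuclei the ubiquitin-ribosomal fusion gene Rps27a (0.58 ± 0.10, adjusted p = 0.0242) and the E1 enzyme Uba1 (0.37 ± 0.08, adjusted p = 0.0393) rose on fasting by edgeR's quasi-likelihood test. In frozen nuclei neither passed (0.66, adjusted p = 0.0567, and 0.36, adjusted p = 0.0588). Of the 7 tested genes listed as ubiquitin ligases of fasting atrophy, 1 (14.3%) rose and 0 fell in each fasting comparison. In IP nuclei the 1 gene was Fbxo31, in fresh (1.44) and frozen (1.42) liver, beside 12.4% and 11% of all genes called higher. The list medians there were -0.01 and 0.02. In the supernatant the 1 gene was Fbxo32, or atrogin-1 (1.76), beside 3.38% of all genes, with a list median of 0.18. Of 22 genes for MHC class I presentation and interferon, 0 rose and 2 (9.09%) fell in fresh IP nuclei, a smaller share than the 12.6% of all genes: Irf1, a transcription factor that acts on Psmb9, with 34.0, 46.0 and 38.7 CPM fed and 11.5, 13.9 and 12.1 CPM fasted (-1.65, adjusted p = 0.000963), and Tapbp (-0.76). The neighbours of Psmb9 and Psmb8 did not pass there (Tap1 -0.50 ± 0.34, adjusted p = 0.204, and Tap2 -0.56 ± 0.21, adjusted p = 0.0704). In frozen nuclei Irf1 (-1.36), Tapbp (-0.74) and Tap2 (-0.70) fell, and Tap1 did not pass (-0.60, adjusted p = 0.134). In the supernatant Nlrc5, the transactivator of MHC class I genes, was the 1 gene of the list called lower (-0.43). That was 4.55% of the list, beside 2.84% of all genes. The list median there was -0.31 against 0.005 for all genes, with 19 of the 22 genes below 0 and 3 above. At an unadjusted p under 0.05 by edgeR there were 13 of the 22, beside 3221 of 13921 genes. In fresh IP nuclei the list median was -0.10, and 6 of the 22 had such a p, beside 4923 of 12548 genes.

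Between fractions, 16 of the 22 presentation and interferon genes were lower (72.7%) and 4 higher (18.2%) in IP than in supernatant nuclei, beside 43.0% and 42.0% of all genes, among the lower ones Irf8 (-5.91), Ifngr2 (-3.24), Gbp2 (-3.19), Ifngr1 (-2.95), Tap1 (-1.77) and Tap2 (-1.85). Of the assembly and associated list 14 of 19 (73.7%) were higher and 3 (15.8%) lower, led by Rad23b (1.35) and Adrm1 (1.06), with Psmf1 at 0.72. Nfe2l1 was higher by 1.41 ± 0.09 and Ddi2, the protease that activates Nrf1, by 2.11 ± 0.06, while Maf was lower (-3.75). In the authors' deposited table of the fasting comparison, 33 of the proteasome genes were higher and 5 lower at an adjusted p under 0.05 in fresh and 32 higher and 3 lower in frozen IP nuclei. All 32 genes called here in each preparation passed there in the same direction. Psmb8 had log2 fold changes of -0.77 (adjusted p = 0.00505) and -1.19 (adjusted p = 9e-06) in the authors' deposited table, and Psmb10 of -0.81 (adjusted p = 0.0191) and -0.56 (adjusted p = 0.131).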

How the data were processed

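Per the labels' protocols, RNA of bead-bound and supernatant nuclei was made into stranded libraries without poly(A) selection and read as paired ends. The authors deposited raw read counts per gene, with reads mapped with STAR 2.4.2a to mm10 and differences computed with DESeq2 1.24.0 per the submitters' processing notes; the strand setting of counting is not given in the sources used here. They also deposited a table with normalized signal, log2 fold changes and adjusted p-values, from which values are quoted only where named.

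Count columns were matched to groups by name. Their letters A, B and C appear in no label, so they name libraries only. Another 6 count columns matched no sample and were not used. The 3 replicates of a group are separate mice, while the fresh, frozen and supernatant groups of a feeding state share mice. After removal of group means, the correlation over genes of same-letter libraries was 0.555 to 0.902 for the 2 IP preparations, 0.152 to 0.478 for supernatant with IP, and -0.586 to 0.0101 for different letters, so letters were taken to pair libraries of a mouse, and a fit with that block is an alternative.

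Counts were fitted with edgeR 4.0.16 (R 4.3.3; TMM, filterByExpr with a minimum count of 10, quasi-likelihood test, Benjamini-Hochberg over all genes tested), with only the compared groups in each fit. Log2 CPM used a prior count of 2. The code was tested on simulated data. Alternatives were DESeq2 1.42.0, its size factors, no filter, library totals, the block and leaving out each library; for ratios, another prior count and a paired exact test added later. Library totals were 13828945 to 54434263 counts.

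The genes and gene lists were chosen with earlier results of these data known. Values are given in each comparison for Psmb5 to Psmb10, for up to 8 further called members with the largest change, for up to 4 called genes of each pathway list, and for Tap1, Tap2, Nfe2l1 and Psmf1; other members are named to account for all, after their values were seen. Some genes of the pathway lists are not reported here. Protein sequences were not used here.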

Additional observations from a re-analysis of the deposited data

Results flagged for a closer look

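The fasting response differed between IP and supernatant nuclei of fresh liver, by the interaction term of edgeR's quasi-likelihood fit with an adjusted p under 0.05, for 10 proteasome genes. As log2 differences of the response, IP minus supernatant, they were 0.90 for Psmd14, 0.81 for Psmb3, 0.67 for Psmd4, 0.62 for Psmd13, 0.62 for Psma5, 0.59 for Psme3, 0.53 for Psmd1, 0.48 for Psmc6, 0.41 for Psmb7 and -1.55 for Psmb9.

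The same term passed for 9 genes of the pathway lists. Of all 14322 genes tested, 3.71% had the higher and 5.83% the lower response in IP nuclei. The list of assembly and associated factors had 1 of 19 higher and 0 lower, and that of transcription control 1 of 11 higher and 3 lower. The presentation and interferon list had 1 of 22 higher and 1 lower, and the ligases 1 of 7 higher and 1 lower. Of 8 ubiquitin and E1 genes 0 passed. The interferon factors Irf1 and Irf9 differed by -1.14 and 0.60. Of the genes listed for the control of proteasome transcription, Maf differed by -1.03, Mafg by -0.67, Sel1l by -0.50 and Vcp by 0.49. The shuttle factor Ubqln1 differed by 0.46. Of the ligases, Fbxo32 differed by -2.00 and Fbxo31 by 1.01. Fbxo32 rose in the supernatant and Fbxo31 in IP nuclei.

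Groups of 3 libraries are too small for the check on single outlying samples, which was not run.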

How the results depend on the processing

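Of 122 single-gene results past the threshold, 119 stayed past it with DESeq2's size factors, 122 with DESeq2's own test and 113 without a filter on low counts. DESeq2 called 3 members lower in fresh IP, 1 higher in the supernatant (1881 genes against 866) and 19 with the higher response in IP (2326 genes against 1367). Without a filter 1 member was lower in the supernatant. Library totals with no composition factor, chosen after seeing the data, kept 113 of the 122, gave 0 members lower in the supernatant and 14 with the higher response in IP, and moved the all-gene median of IP against supernatant from -0.0006 to -0.34, with 27 members higher and 9 lower there. There Psmc1 (-0.22, called lower), Psmd13 (-0.0673), Psme3 (-0.0599), Psme4 (-0.0148) and, for fasting in the supernatant, Nfe2l1 (0.0077) changed sign. With the replicate block, 5 members were lower in frozen against fresh IP, with 2168 genes called. Nfe2l1 was lower there (-0.17, adjusted p = 0.0429 by edgeR). Apart from the calls named here and for the response difference between IP and supernatant, the block changed no member's call; the paired exact test of the ratios left -3.37, -3.71 and -1.95 between IP and supernatant with an adjusted p of 0.136. The frozen minus fresh fasting response of Psmb7 turned to 1e-04 with DESeq2, 0.0045 with library totals and 0.0016 with the replicate block.

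Leaving out 1 library at a time, the 122 results kept their call in 876 refits and lost it, with the same sign, in 180. This pools unlike comparisons. In IP against supernatant nuclei 33 members stayed higher and 7 lower in every such refit. The losses among members all lay in the fasting comparisons and in the response difference between IP and supernatant. In fresh IP 15 to 26 members were higher and 1 to 2 lower, with 1429 to 2643 genes called. In frozen IP 11 to 28 were higher and 0 to 1 lower (1168 to 2271 genes), and in the supernatant 0 to 1 lower (197 to 624 genes). In each of these 3 comparisons the fewest genes were called without the fasted library of letter A. Frozen against fresh called 409 to 711 genes. The response difference between IP and supernatant had 2 to 13 members higher, with 771 to 1485 genes. The log2 ratio differences ranged from -0.23 to -0.08 for Psmb8 to Psmb5 and -0.72 to -0.40 for Psmb10 to Psmb7 in the supernatant, and from -0.0275 to 0.22, -0.44 to 0.0126 and -0.14 to 0.12 for the 3 pairs in frozen against fresh. Single genes that changed sign were all ones not past the threshold. On fasting they ranged from -0.035 to 0.1292 for Nfe2l1 in fresh IP, and in the supernatant from -0.1268 to 0.0266 for Psmb8, -0.0007 to 0.1661 for Psmb5, -0.1731 to 0.0027 for Tap2 and -0.109 to 0.0513 for Nfe2l1. In frozen against fresh they ranged from -0.039 to 0.1313 for Psmb8, -0.2971 to 0.0915 for Psmb9, -0.1365 to 0.1562 for Psmb10, -0.135 to 0.0314 for Psmb5, -0.0037 to 0.0332 for Psmb7, -0.1827 to 0.0969 for Tap1 and -0.0148 to 0.1027 for Psmf1. For the response difference between IP and supernatant they ranged from -0.5718 to 0.0115 for Tap1 and -0.0662 to 0.1217 for Nfe2l1, and for that between frozen and fresh from -0.0999 to 0.484 for Psmb10, -0.2487 to 0.0849 for Psmb5, -0.0481 to 0.0321 for Psmb7, -0.3722 to 0.1877 for Tap1, -0.3099 to 0.0082 for Tap2, -0.046 to 0.3022 for Nfe2l1 and -0.1877 to 0.035 for Psmf1. Psmb8 had 27 to 76 counts per fresh IP library, and each group had 3 mice.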
